A study of Mus musculus with 6 samples.

Results

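The RFX transcription factors Rfx1, Rfx2, Rfx3, Rfx4, Rfx5 and Rfx7 and the forkhead factor Foxj1 were followed in microglia, the tissue macrophages of the brain, from the rostral nucleus of the solitary tract (NST), the brainstem relay for taste. These 7 genes were found by symbol among the 26789 genes of the deposited table, and all 7 passed the filter on low values, as did 18007 genes in all. They were selected on the values of Rfx3, whose lowest E3–E12 diet library lay above its highest control, so the diet contrast of these genes is given as a description. The 6 libraries came from P15 mice whose dams were fed either a control diet (controls, n = 3) or a low sodium diet early in gestation (E3–E12 diet mice, n = 3), with no further treatment or allele named in the labels. The methods of the study pooled the tissue of littermates, so that a library stands for a single litter, and selected cells on CD11b, which other myeloid cells carry too. C57Bl/6 controls are named there for its anatomical work, and the labels of these libraries name no strain. The deposited description differs in how cells were isolated (laser microdissection), in the RNA kit, library kit and in read length, which leaves the preparation uncertain.

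RFX proteins share a winged-helix domain that binds the X-box, an inverted repeat found in promoters of ciliary genes and, in another form, of MHC class II genes. Rfx2 and Rfx3 are known for switching on genes for building cilia, and Foxj1 for the motile cilia program of ependymal and other multiciliated cells. Rfx5 forms a complex with Rfxank and Rfxap on MHC class II promoters, where Ciita is the coactivator, a role that belongs to antigen-presenting cells. Rfx4 is known from neural progenitors and astrocytes, Rfx1 is broadly expressed, and Rfx7 is a broadly expressed member studied in lymphocytes and in the p53 response.

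Rfx3 was the member that stood highest across the E3–E12 diet libraries relative to controls, 3.18-fold by group means, whereas Rfx2 was 1.95-fold by group means with a wider spread. Rfx7 had the highest level per kb of exon, and Foxj1 and Rfx2 the lowest. None of the 7 genes passed an adjusted p of 0.1 (limma with Benjamini-Hochberg adjustment), against 0.0% of the 18007 genes tested, and nothing is read from that count. With its own test (DESeq2) at the same threshold, the study listed Rfx3 as upregulated in E3–E12 diet mice, along with genes such as Tnf and Aldoc. It listed many further genes in both directions, where limma called none. Of other genes that it annotated with ciliogenesis, Tmem218 was listed as upregulated and Tctn3 as downregulated. The count given here is that of limma on normalized counts. Among all genes tested, 268 had an unadjusted p under 0.05, and the smallest adjusted p was 0.999. The groups did not overlap, with the E3–E12 diet libraries higher, in 1 of the 7 genes, Rfx3 itself, and in 2.99% of all genes tested. Of all genes tested, 2.91% had every E3–E12 diet library below every control, and 0 of the 7 genes did. Since Rfx3 was chosen by this pattern, nothing is read from that count either.

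The promoters of Rfx3, Rfx2 and Rfx1 are shown because they are the members whose promoter holds GTTGCC, an arm of the X-box, within 250 bases before to 50 bases after the start of the gene (RefSeq, GRCm38.p6). They lie at chr19:28011117-28011416 on the minus strand for Rfx3, chr17:56830959-56831258 on the minus strand for Rfx2 and chr8:84066586-84066885 on the plus strand for Rfx1. Each is written 5′ to 3′ on the strand of the gene, and capitals mark GTTGCC and, at the end of the Rfx2 promoter, an inverted repeat of the X-box kind.
Rfx3: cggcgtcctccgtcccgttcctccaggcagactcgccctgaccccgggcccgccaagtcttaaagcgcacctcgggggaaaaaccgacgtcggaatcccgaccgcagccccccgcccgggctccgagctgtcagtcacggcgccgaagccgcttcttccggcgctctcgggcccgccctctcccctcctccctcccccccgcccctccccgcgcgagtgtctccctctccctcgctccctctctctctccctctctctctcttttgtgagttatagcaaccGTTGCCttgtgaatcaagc
Rfx2: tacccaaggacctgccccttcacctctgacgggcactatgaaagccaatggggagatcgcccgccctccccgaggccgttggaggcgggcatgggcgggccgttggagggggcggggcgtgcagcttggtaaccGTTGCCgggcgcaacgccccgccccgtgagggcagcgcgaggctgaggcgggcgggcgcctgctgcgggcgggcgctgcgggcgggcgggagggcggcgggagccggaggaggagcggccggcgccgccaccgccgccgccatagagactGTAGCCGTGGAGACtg
Rfx1: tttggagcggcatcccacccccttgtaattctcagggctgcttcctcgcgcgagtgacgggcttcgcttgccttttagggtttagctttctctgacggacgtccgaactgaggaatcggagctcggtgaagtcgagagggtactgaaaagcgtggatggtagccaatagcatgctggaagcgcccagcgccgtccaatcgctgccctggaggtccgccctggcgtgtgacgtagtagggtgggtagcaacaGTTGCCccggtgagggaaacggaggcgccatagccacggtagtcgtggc
GTTGCC or its other strand GGCAAC was found in 14.1% of the 27025 genes with a promoter in the table and in 3 of the 6 RFX members. Among the gene lists described below, 9 of 19 for intraflagellar transport, 6 of 14 for motile cilium structure and 3 of 7 for multiciliation regulators held it. The counts were 3 of 9 for the BBSome, 2 of 6 for MHC class II genes and 0 of 6 for the RFX complex. GTTGCC began at position 32 of the transcript in Rfx3, at position 2 in Rfx1 and 116 bases before the start in Rfx2. In all 3 promoters the letters AAC and 1 further base came directly before GTTGCC. The joined letters AACNGTTGCC, with other strand GGCAACNGTT, were in 43 genes, 0.159% of those with a promoter. These motifs were chosen after the promoters had been seen, and a match is a description of letters, not of a bound site.

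The inverted repeat was searched as GTNNCC, 1 to 3 bases and GGNNAC, which includes GTTGCC as its left arm where the letters fit. It was in 4.0% of all genes with a promoter and in 1 of the 6 RFX members, Rfx2, at position 35 of the transcript. Among genes of the BBSome, the coat that carries membrane cargo in cilia, 3 of 9 held it. That list counts Arl6, a GTPase that recruits the coat, along with the subunits. Among genes of intraflagellar transport (IFT), which moves cargo along the cilium, 3 of 19 held the repeat. The counts were 3 of 14 for motile cilium structure, 1 of 7 for regulators of multiciliation, 0 of 6 for MHC class II genes and 0 of 6 for the RFX complex with its partners. Windows from 4 of these genes are shown beside that of Rfx2 to let the letters of the repeat be compared between ciliary promoters, with the repeat in capitals and a few bases on each side. The 4 were chosen for having GTTGCC as the left arm, which Ift57 of the IFT genes has too, though it is not shown. Other genes counted here, such as Bbs4, Rsph9, Wdr19 and Tekt4, have other letters there. They lie at chr19:4906605-4906634 (minus strand, Bbs1), chr3:36613489-36613518 (minus, Bbs7), chr16:16829314-16829337 (minus, Spag6l), chr13:112987575-112987604 (plus, Ccno) and chr17:56830959-56830982 (minus, Rfx2).
Bbs1: ctgagctgGTTGCCAAGGCGACgcctggga
Bbs7: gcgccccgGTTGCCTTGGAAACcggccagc
Spag6l: tgctgtcgGTTGCCCTGGAGACgc
Ccno: gggctgcgGTTGCCACGGTGACgacagacg
Rfx2: tagagactGTAGCCGTGGAGACtg

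Values below are in the order of replicates 1, 2 and 3 of each group, in normalized counts unless another quantity is named. SE is the standard error of a log2 fold change, which is on the log2(normalized count + 1) scale, positive where E3–E12 diet mice were higher. Normalized counts summed to between 9671119 and 17204618 in controls and between 9407141 and 14656956 in E3–E12 diet mice, and the reads behind them are not known. Control replicate 2 stood apart, with the highest total and 10640 genes listed at 0, against 3459 to 7135 in the other libraries. The summed level of 10 microglial markers was 99120 to 488187 in controls and 97516 to 305622 in E3–E12 diet mice, which in every library exceeded the sum of each list of other markers. Those other lists were all detected, with sums of 145 to 42452 for 10 choroid plexus markers, 4749 to 34571 for 10 markers of the oligodendrocyte lineage, 5318 to 15825 for 9 endothelial markers, 1759 to 9881 for 8 astrocyte markers, 690 to 2022 for 8 neuronal markers and 182 to 736 for 8 ependymal markers over the 6 libraries. In pooled cells, fewer cells of a type and less RNA per cell cannot be told apart.

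Among the ciliary regulators, Rfx3 lies at chr19:27761721-28011166 on the minus strand (GRCm38). Its normalized counts were 474, 609 and 321 across the controls, against 1128, 1134 and 2200 across the E3–E12 diet libraries. The lowest E3–E12 diet library was thus above the highest control, and replicate 3 of the E3–E12 diet mice stood well above the other two. The mean was 468 ± 144 over the controls and 1487 ± 617 over the E3–E12 diet libraries (SD, n = 3 for both), and the log2 fold change was 1.64 (SE 0.51). With 1 library left out in turn the log2 fold change of Rfx3 was between 1.32 (without E3–E12 diet replicate 3) and 1.85 (without control replicate 2). Ranked within its library, Rfx3 was above 70.3% to 77.8% of the genes tested in controls and above 89.2% to 94.0% in E3–E12 diet mice. Only 0.107% of the 50-base windows of its transcripts occur in another annotated gene, and the antisense gene Gm20407 and the pseudogene Gm8412 within its span share 0 exon bases with it.

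None of the marker genes passed the adjusted threshold, and the highest medians were those of endothelial and astrocyte markers, whose part in the level of Rfx3 was not tested. Of the endothelial markers 6 of 9 had a log2 fold change above 0, with a median of 1.51, or -0.33 without control replicate 2. All 8 astrocyte markers were above 0, with a median of 1.46, or 0.71 without control replicate 2, where Gfap (-1.21) and Slc1a2 (-0.65) were below 0. Aldoc, a glycolytic enzyme of astrocytes, was without overlap between groups, at 236, 7.17 and 203 normalized counts in controls and 607, 486 and 516 in E3–E12 diet mice (named after its values were seen). It was 1 gene of the 8, against 2.99% of all genes tested that were higher without overlap, and nothing is read from it. The summed astrocyte level overlapped, at 9154, 1759 and 5535 across the controls, against 9881, 4853 and 4819 across the E3–E12 diet libraries. Microglial markers had a median log2 fold change of -0.24, with 0 of 10 above 0, and a median of 0.25 without control replicate 2.

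Rfx2, the ciliary factor most studied in multiciliated and sperm cells, lies at chr17:56775897-56831013 on the minus strand. It had 115, 2.0 and 82.3 normalized counts across the controls, against 152, 165 and 72.6 across the E3–E12 diet libraries. The groups overlapped, and control replicate 2 was far below every other library. The log2 fold change was 2.0 (SE 1.33), and it was 0.32 without control replicate 2. Rfx3, in contrast, had its highest control value in that library.

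Foxj1 lies at chr11:116330704-116335399 on the minus strand and had 80.5, 11.9 and 48.5 normalized counts across the controls, against 105, 37.1 and 66.3 across the E3–E12 diet libraries. The groups overlapped, with the lowest value again in control replicate 2. Its log2 fold change was 0.80 (SE 1.04) and was 0.03 without control replicate 2. Within a library Foxj1 stood above 27.5% to 41.3% of the genes tested, so it was among the low genes in both groups.

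Foxj1 was highest in E3–E12 diet replicate 1, as were the summed levels of 3 lists that bear on ciliated and neighbouring cells. The motile cilium genes summed to 795, 358 and 384 normalized counts across the controls, against 1794, 338 and 215 across the E3–E12 diet libraries. Ependymal markers summed to 319, 317 and 310 in controls and to 736, 182 and 402 in E3–E12 diet mice, and among them Rarres2 was listed at 0 in 5 libraries. Ak7 and Rsph1 are in this list and in that of motile cilium genes, and Ak7 alone had 207 in control replicate 2. Choroid plexus markers summed to 8350, 809 and 20324 in controls and to 42452, 145 and 724 in E3–E12 diet mice. E3–E12 diet replicate 1 was thus highest in Foxj1 and in these 3 sums, while replicate 3 of that group had the lowest motile cilium sum and a Foxj1 level above 2 of the 3 controls. The part of these cell types in the Foxj1 level was not tested.

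**Figure D1:**
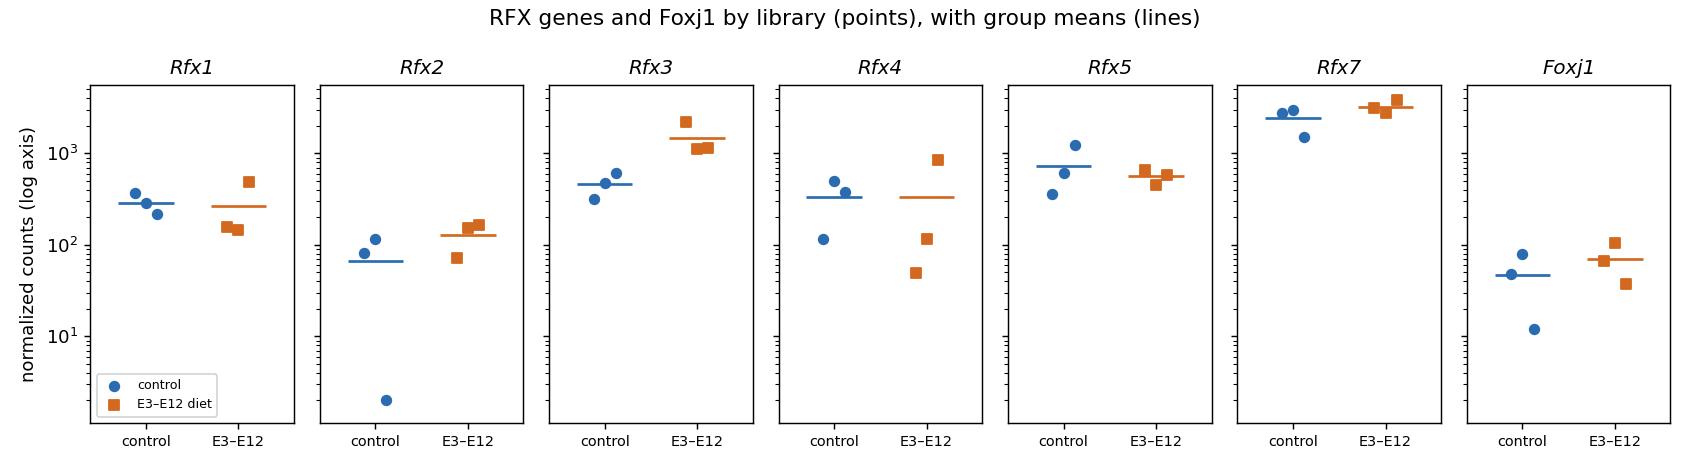
Normalized counts (log axis) of the 7 genes, with 1 panel per gene, a point for each control library, a square for each E3–E12 diet library and a line at each group mean. Rfx3 alone has its groups apart (321 to 609 in controls, 1128 to 2200 in E3–E12 diet mice), and the low point of Rfx2 at 2.0 is control replicate 2.

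**Figure D2:**
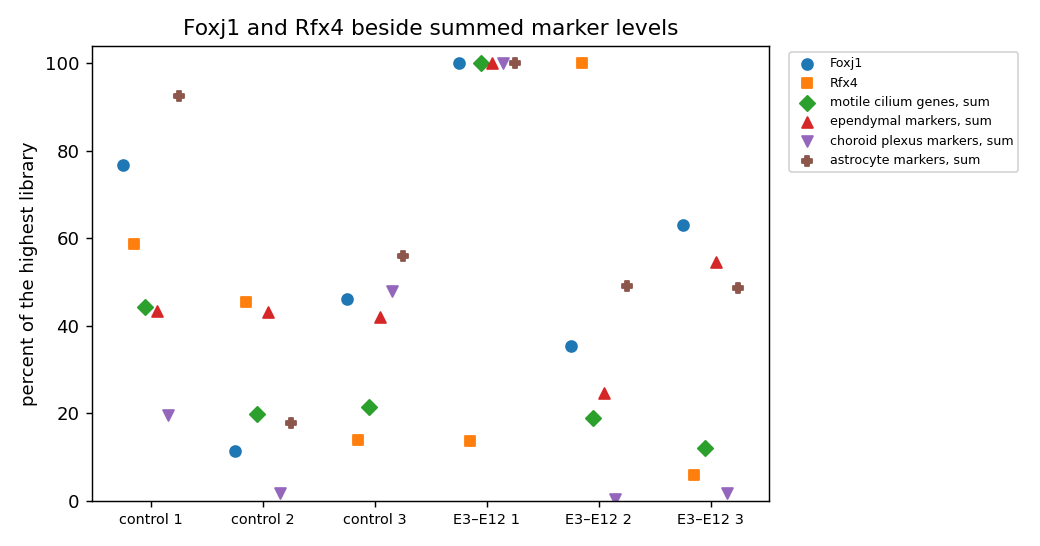
Foxj1, Rfx4 and 4 summed gene lists in each library, as percent of the highest library for each series (y axis, linear). E3–E12 diet replicate 1 is the highest library for Foxj1 (105 normalized counts) and for all 4 sums, whereas Rfx4 is highest in E3–E12 diet replicate 2 (841).

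Among genes of the cilium and its regulators, none passed the adjusted threshold in either direction. The lists were intraflagellar transport, BBSome, motile cilium structure and multiciliation regulators, and they are set beside all genes tested, of which 9797 had a log2 fold change above 0 and 8210 below 0, with a median of 0.087. For intraflagellar transport, 10 of the 21 genes tested were above 0 and 11 below, with a median of -0.06. The highest were Ift27 (0.80, SE 1.69; -1.0 without control replicate 2, in which it was listed at 0) and Ift52 (0.54, SE 0.79). The lowest were Ift74 (-1.71, SE 1.15) and Dync2li1 (-0.88, SE 2.02), a light intermediate chain of the motor for return transport. Kif3b, a subunit of the kinesin motor that carries IFT outward, was the one gene of the list without overlap between groups and was lower, at 421, 1045 and 574 normalized counts in controls and 311, 400 and 378 in E3–E12 diet mice (named after its values were seen). Of all genes tested, 2.91% were lower without overlap, so 1 gene of 21 is read as near that background.

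For the BBSome list, with Arl6 included, 5 of 9 genes tested were above 0 and 4 below, with a median of 0.01. Bbs7, whose promoter window is printed above, had 95.3, 2.9 and 55.5 normalized counts across the controls, against 220, 83.7 and 150 across the E3–E12 diet libraries. The groups overlapped in Bbs7, because E3–E12 diet replicate 2 lay below control replicate 1. Its log2 fold change was 2.35 (SE 1.22), and 0.94 without control replicate 2. Bbs1 followed at 0.96 (SE 0.87; -0.04 without control replicate 2), and the lowest were Bbs2 at -0.54 (SE 1.19) and Ttc8 at -0.39 (SE 0.79).

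For motile cilium structure, 11 of 18 genes tested were above 0 and 7 below, with a median of 0.66. Without control replicate 2 that median was -0.59. The highest were the axonemal gene Tekt4 (2.21, SE 2.17) and the dynein intermediate chain Dnai2 (2.04, SE 1.67), and the lowest Ak7 (-2.92, SE 1.79), an adenylate kinase of motile cilia, and Ccdc39 (-2.23, SE 1.54), which sets the spacing of axonemal dyneins. All 4 had at most 207 normalized counts in each library, and Tekt4 was listed at 0 in control replicate 2 and E3–E12 diet replicate 3. Among the regulators that start the multiciliated program, 3 of 7 genes tested were above 0 and 4 below, with a median of -0.06. Their highest were Tfdp1 (1.5, SE 2.32; 0.36 without control replicate 2) and Myb (1.33, SE 1.42), and their lowest Trp73 (-0.88, SE 2.0) and E2f5 (-0.88, SE 1.14).

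**Figure D3:**
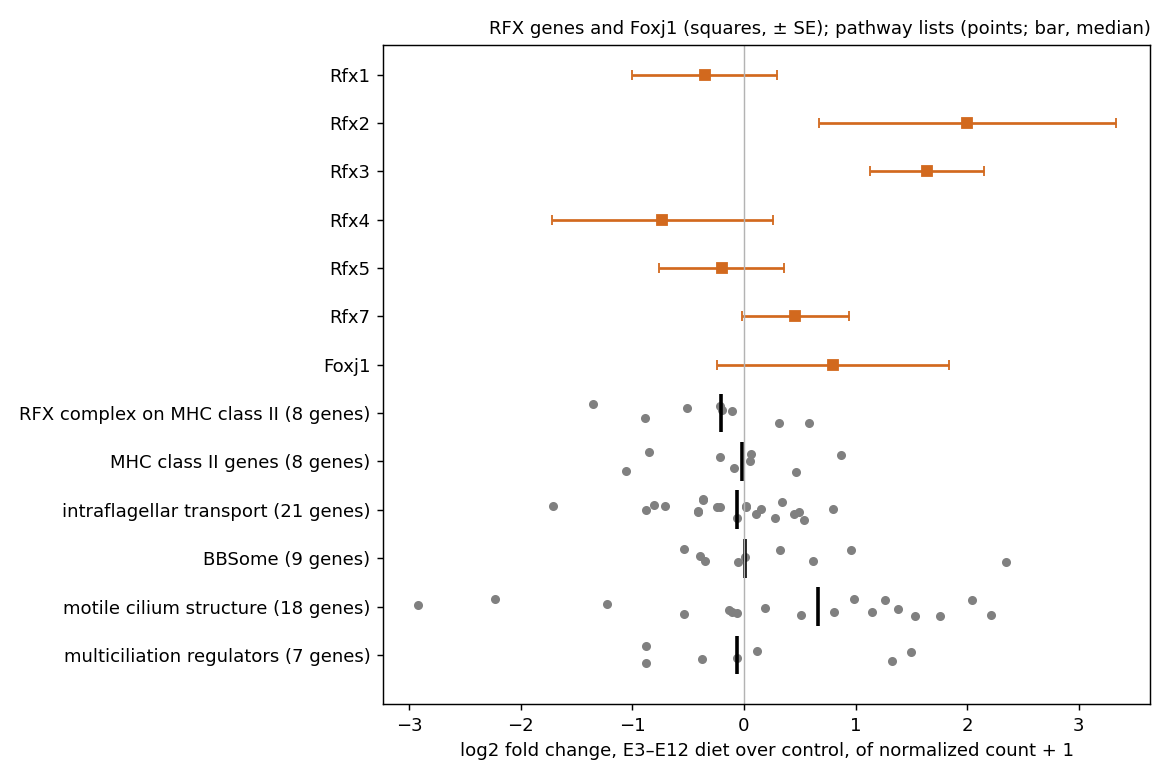
Log2 fold changes of normalized count + 1 between diets (x axis; values above 0 are higher in E3–E12 diet mice), with squares and standard errors for the 7 genes, and points for each tested gene of 6 lists with the median as a bar. Rfx3 (1.64) and Rfx2 (2.0) lie to the right, and 5 of the 6 list medians lie between -0.21 and 0.01, with motile cilium structure at 0.66.

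Rfx5, the DNA-binding subunit of the MHC class II complex, lies at chr3:94954075-94961561 on the plus strand. Its normalized counts were 603, 1228 and 363 across the controls, against 456, 587 and 659 across the E3–E12 diet libraries. All 3 E3–E12 diet libraries fell within the span of the controls. The log2 fold change was -0.20 (SE 0.56) and turned to 0.26 without control replicate 2. Of its 50-base windows, 22.3% are shared with the antisense gene B230398E01Rik, which overlaps 1471 of its exon bases, and since the counting is not stated to use strand the reads of the pair cannot be told apart. The antisense gene itself had 85.25, 299 and 105.4 normalized counts in controls and 83.85, 119.15 and 126.82 in E3–E12 diet mice.

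The partners of Rfx5 were low and scattered. Rfxank had 107, 0 and 88.6 normalized counts across the controls, against 7.93, 167 and 0 across the E3–E12 diet libraries (log2 fold change -0.89, SE 2.23), and 33.8% of its exon bases overlap the opposite-strand gene Nr2c2ap. Rfxap had 80.7, 44.2 and 69.5 in controls and 264, 61.4 and 51.3 in E3–E12 diet mice (log2 fold change 0.58, SE 0.90). Ciita, the coactivator that sets the level of MHC class II, had 80.4, 3.99 and 45.7 in controls and 81.7, 24.7 and 16.1 in E3–E12 diet mice (log2 fold change 0.31, SE 1.34; -0.90 without control replicate 2). All 3 overlapped between groups.

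Over the 8 genes of this complex, which include Rfx5 and the NF-Y and Creb1 factors that bind beside it, 2 had a log2 fold change above 0 and 6 below, with a median of -0.21 and 0 called. Nfyb was the lowest at -1.35 (SE 0.97), and it was -0.10 without control replicate 2, in which it had 2002 normalized counts. Of 8 MHC class II genes, 4 were above 0 and 4 below, with a median of -0.02 and 0 called, and the median was -0.46 without E3–E12 diet replicate 2 and 0.51 without replicate 1 of that group. The highest were H2-Eb1 (0.87, SE 1.88; -0.76 without control replicate 2) and H2-DMa (0.47, SE 0.82), and the lowest H2-Oa (-1.06, SE 0.96) and H2-Ab1 (-0.85, SE 1.01). Each of these 4 genes overlapped between groups.

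Rfx7 lies at chr9:72532240-72622937 on the plus strand and had 3013, 1494 and 2791 normalized counts across the controls, against 2746, 3803 and 3148 across the E3–E12 diet libraries. The groups overlapped, with control replicate 2 the lowest library. Its log2 fold change was 0.46 (SE 0.48), and 0.14 without control replicate 2. Rfx7 stood above 88.1% to 97.7% of the genes tested in its library, the highest such span of the 7 genes, and 5.94% of its windows are shared with other genes. The antisense genes Gm27241 and Gm27232 overlap 417 and 597 of its exon bases. Both were highest in control replicate 2, at 824.19 and 154.02 normalized counts. Their part in the Rfx7 level was not tested.

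Rfx1 lies at chr8:84066834-84096992 on the plus strand and had 285, 219 and 366 normalized counts across the controls, against 144, 491 and 156 across the E3–E12 diet libraries. E3–E12 diet replicate 2 was the highest of all 6 libraries and the other two of its group the lowest, so the groups overlapped. Its log2 fold change was -0.35 (SE 0.65), or -0.91 without that library and -0.03 without E3–E12 diet replicate 1. Rfx4, at chr10:84756062-84906538 on the plus strand, had 494, 383 and 117 in controls and 115, 841 and 49.5 in E3–E12 diet mice. It was likewise highest in E3–E12 diet replicate 2 and lowest in replicate 3 of that group, a 17.0-fold span over the libraries. The log2 fold change of Rfx4 was -0.73 (SE 0.99) and turned to 0.15 without E3–E12 diet replicate 3, and was -1.88 without replicate 2. The astrocyte sum was 4853 where Rfx4 was highest and 4819 where it was lowest, and its markers went in different directions. From E3–E12 diet replicate 2 to 3, Aqp4 (576 to 160), Gjb6 (120 to 6.79), Aldh1l1, S100b and Gfap fell. Slc1a3 (642 to 1099), Slc1a2 (2782 to 2949) and Aldoc (486 to 516) rose. The part of astrocytes in the Rfx4 level was not tested.

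Leaving out 1 E3–E12 diet library changed which genes were without overlap, other than Rfx3, for which the choice of members fixes it. Without replicate 1, Rfx7 joined Rfx3 on the higher side, against 7.6% of all genes tested, and 0 members were on the lower side, against 7.15%. Without replicate 2, Rfx1 and Rfx4 were lower in both remaining libraries than in every control, against 6.25% of all genes, and Rfx3 was higher, against 6.88%. Without replicate 3, Rfx2 joined Rfx3, against 7.9%, and 0 members were lower, against 6.53%.

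**Figure D4:**
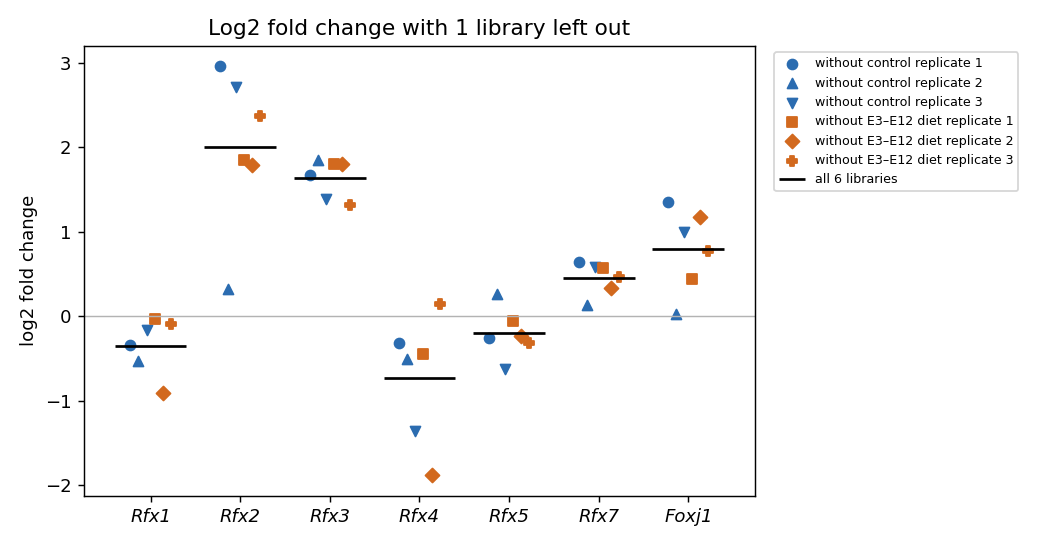
Log2 fold change (y axis) of each of the 7 genes with each library left out in turn (symbols; blue for a control, orange for an E3–E12 diet library) and with all 6 libraries (black line). Rfx3 stays between 1.32 and 1.85, Rfx2 falls to 0.32 and Foxj1 to 0.03 without control replicate 2, and Rfx4 spans -1.88 to 0.15.

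To compare genes with each other, normalized counts were divided by exon length in kb. The mean level per kb over the 6 libraries was 185 for Rfx7, 118 for Rfx5, 88.6 for Rfx3, 70.6 for Rfx4, 43.1 for Rfx1, 22.2 for Foxj1 and 13.4 for Rfx2. The order was not that of either group, since Rfx3 had a mean per kb of 42.4 in controls, below Rfx4 (70.2) and Rfx1 (45.1), and of 135 in E3–E12 diet mice, above Rfx5 (103). Every pair of neighbours in the order over all libraries overlapped in range, and the upper gene of the pair was higher in 3 (Rfx3 over Rfx4) to 5 (Rfx7 over Rfx5, Foxj1 over Rfx2) of the 6 libraries. Rfx3 made up 8.36%, 11.2% and 7.85% of the summed level per kb of the 6 RFX genes across the controls, against 23.7%, 14.0% and 35.0% across the E3–E12 diet libraries. Rfx7 held 19.9% to 49.3% of that sum and Rfx5 14.5% to 45.4%, the latter with its highest share in control replicate 2.

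The ratio of Rfx3 to its relatives within a library does not depend on a scaling that is the same for all genes of that library. It would depend on an adjustment made gene by gene, and whether the deposited values had one is not stated. The ratio of Rfx3 to Rfx5 in normalized counts was 0.786, 0.496 and 0.884 across the controls, against 2.47, 1.93 and 3.34 across the E3–E12 diet libraries. Those ratios did not overlap between groups. The ratio to Rfx1 was 0.876 to 2.78 in controls and 2.31 to 14.1 in E3–E12 diet mice, and that to Rfx7 was 0.115 to 0.407 in controls and 0.298 to 0.699 in E3–E12 diet mice, and both overlapped. They are not per kb and are read between libraries only, and since they use the values that chose Rfx3 they carry no test.

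**Figure D5:**
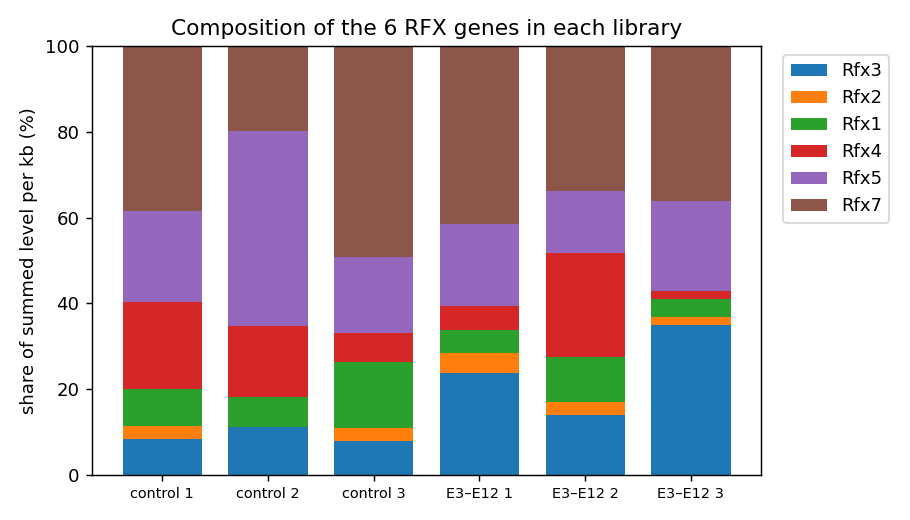
Share (y axis, percent) of each of the 6 RFX genes in their summed level per kb of exon, with 1 stacked bar per library. The Rfx3 segment is 7.85% to 11.2% in controls and 14.0% to 35.0% in E3–E12 diet mice, and Rfx2 is the thinnest segment in every library.

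The 5 genes whose log2 levels followed Rfx3 most closely over the 6 libraries were Pramel7, with a Pearson r of 0.986, Dgcr6 (0.983), Tnf (0.961), Lztr1 (0.958) and Adgrd1 (0.958). They are the top of 18006 genes, the 6 points share the diet difference and library depth, and the values are a description. Tnf, the inflammatory cytokine made by microglia, had 1083, 1012 and 825 normalized counts across the controls, against 2342, 1789 and 4982 across the E3–E12 diet libraries. Like Rfx3, it had no overlap between groups and its highest value in E3–E12 diet replicate 3. Both traits largely follow from choosing Tnf by its r with Rfx3 and are no further likeness. Dgcr6 had 50.9, 74.8 and 35.5 in controls and 116, 142 and 187 in E3–E12 diet mice, and Lztr1, an adaptor that targets Ras proteins for ubiquitination, had 342, 503 and 280 in controls and 593, 611 and 738 in E3–E12 diet mice. Pramel7 and Adgrd1 had at most 36.4 normalized counts in every library.

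No other member was near the top of that order. Their r with Rfx3 was 0.32 for Rfx7, 0.22 for Foxj1, 0.20 for Rfx2, 0.18 for Rfx5, -0.33 for Rfx4 and -0.48 for Rfx1, and the highest, Rfx7, ranked 3124 of the 18006 genes. Of the remaining RFX genes in the table, Rfx6, known from pancreatic endocrine cells, was at 22.7 in E3–E12 diet replicate 1 and listed at 0 in the other 5 libraries, below the filter. Rfx8 had 18.7 in control replicate 1 and 59.6 in E3–E12 diet replicate 1 and was listed at 0 in the other 4 libraries.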

How the data were processed

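Microglial RNA of 3 control and 3 E3–E12 diet libraries was measured by RNA-seq. By the study's methods the RNA of CD11b-selected cells was amplified before paired-end sequencing, whereas the labels name laser microdissection, another RNA kit and TruSeq libraries. The submitters' processing notes name FastQC, STAR, featureCounts and DESeq2 and the build GRCm38, with no versions and no statement on strand. The authors deposited 1 table of normalized counts per gene (a signal that is not whole reads, with 9.25% to 65.3% of low values at whole multiples of a common step within 0.1), so the depth is unknown and no count model was used. Its name mentions surrogate variables, and whether the values were adjusted for them is not stated.

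Of 26789 genes, 26507 had a symbol. Exons, overlaps and per-kb lengths were taken from GENCODE on GRCm38, and promoters from RefSeq (GRCm38.p6), which matched 6 of the 7 members. The filter asked for a mean normalized count of 10 or more over the libraries. Diets were compared on log2(normalized count + 1) with limma 3.58.1 in R 4.3.3, two-sided, with a mean-variance trend and Benjamini-Hochberg adjustment over 18007 genes at a threshold of 0.1, which is the study's. The fit was tested on simulated data with a smaller spread than these libraries and with changes larger than that of Rfx3. That test does not show which changes could be called here. Each library is 1 litter according to the study's methods. Dnai1 and Dnai2 were matched through RefSeq synonyms.

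The members and gene lists were chosen with earlier results of these data known. Named genes were the 7 members, Rfx6, Rfx8, Rfxank, Rfxap and Ciita, the 2 highest and 2 lowest log2 fold changes of each pathway list, and the 5 genes most like Rfx3. Kif3b, Bicra, Aldoc and other single markers of cell types were named after their values were seen. Alternatives were pseudocounts of 10 and 0.1, no filter, quantile normalization, rescaling to equal totals, a replicate block, each library left out, and, chosen after seeing the data, no mean-variance trend.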

Additional observations from a re-analysis of the deposited data

How the results depend on the processing

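The log2 fold change of Rfx3 was between 1.32 and 1.85 under the 13 alternatives, and its sign with a library left out is fixed by the choice of members and is no sign of stability. That of Rfx2, Rfx7 and Foxj1 was above 0 in each. None of the 7 genes was called under any of them. The number of genes called was 0 except without E3–E12 diet replicate 3, where it was 1 (range 0 to 1 with a library left out), namely Bicra, named after its values were seen, which was listed at 0 in the remaining 2 E3–E12 diet libraries (adjusted p = 0.00919 by limma, against 0.156 to 0.997 as the smallest adjusted p with another library left out). With a library left out, genes without overlap numbered 1207 to 1727 higher and 1025 to 1470 lower, and members without overlap 1 to 3, since fewer libraries have to be apart. The median log2 fold change of all genes moved from 0.087 to 0.198 when libraries were rescaled to equal totals, where Rfx3 was at 1.76. Rfx4 and Rfx5 each turned above 0 with 1 library left out (0.15 and 0.26). With the replicate number as a block (replicate block), 0 genes and 0 members were called (smallest adjusted p = 0.979 by limma), 478 genes had an unadjusted p under 0.05 (268 without the block, and 188 to 878 over all alternatives, the highest without control replicate 1), and the log2 fold change of Rfx3 was 1.64. Libraries of the same number deviated from their group means with correlations of 0.26, 0.0348 and 0.142 across genes, and not every library correlated best with its own number, so the numbers are not taken as pairs. Over all genes tested the standard error had a median of 0.90 on the log2 scale, which limits what 3 litters a group can show.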
